A study of Mus musculus with 6 samples.

Results

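The genes described here encode the receptors through which neurons answer fast and slow transmitters. They were taken from the table of gene counts by their symbols: every protein-coding gene of the glutamate receptor families (AMPA, NMDA, kainate, delta and metabotropic), of the GABA-A, GABA-B and glycine receptors, of the nicotinic acetylcholine receptors, of the muscarinic receptors other than Chrm2, and of the serotonin and dopamine receptors. This gave 91 genes of the 57010 in the table. A gene was regarded as detected when it had 10 or more counts in 3 or more libraries, and 14 of the 91 genes met this. The detection rule reads the counts themselves, so a gene that meets it in the libraries of a single group alone had to be high in that group. This held for Gria1, Grin2a and Grik2, which reached 10 counts only in the HO + β-SITO group.

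The libraries were made from primary neonatal mouse cardiomyocytes (NMCMs) isolated from the hearts of C57BL/6 mice 1 to 3 days old, and parted from cardiac fibroblasts by how quickly the cells attach. All of them were kept under hypoxia (HO), and they received either vehicle (HO + Vehicle, 3 libraries, V1 to V3) or β-sitosterol, a plant sterol (HO + β-SITO, 3 libraries, T4 to T6). The comparison asks which transcripts differ when hypoxic NMCMs are given β-SITO. The dose given to these libraries, the duration of hypoxia and whether the 3 libraries of a group came from separate cultures are not given in the sources used here, so p-values measure the spread between these libraries, which may be technical. The library names of the HO + β-SITO group carry a suffix that the others lack, and a separate preparation cannot be told apart from the treatment.

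Ionotropic receptors are ion channels built from several subunits, and many subunits reach the cell surface or conduct only together with a particular partner. AMPA, kainate and NMDA receptors open to glutamate, GABA-A and glycine receptors pass chloride, and nicotinic receptors pass cations on binding acetylcholine. Metabotropic glutamate, GABA-B, muscarinic, dopamine and most serotonin receptors act through G proteins instead. Outside the nervous system these genes are usually transcribed at low levels, and in the heart serotonin receptors are known in valve and vessel cells and in fibroblasts.

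The libraries held between 16694734 and 18460522 counts, at which 10 counts correspond to 0.514 to 0.632 CPM (counts relative to the TMM-adjusted depth of each library) and 3 counts, the most that an observed 0 allows, to 0.154 to 0.189 CPM. These limits cover counting error only. The 11 cardiomyocyte markers were all tested, and their summed level ranged from 4866 to 5657 CPM with vehicle and from 4771 to 8062 CPM with β-SITO. T4 stood apart from the other β-SITO libraries: Myh6, the main myosin heavy chain of the adult mouse heart, was at 2023 CPM in T4 and at 3268 and 3256 CPM in T5 and T6, beside 1726 to 2274 CPM with vehicle. Nppa, the atrial natriuretic peptide gene, was at 647.8 CPM in T4 and at 1410 and 1469 CPM in T5 and T6. The 7 fibroblast markers summed to 29590 to 30884 and 43953 to 45005 CPM, more than the cardiomyocyte list in every library. Among 12 neuron markers, Snap25 and Rbfox3 had 0 counts in all 6 libraries, Syt1 and Elavl3 had at most 1 count in a library, and Stmn2 at most 4. The summed level of the neuron list was 51.8 to 59.1 CPM against 62.4 to 71.0 CPM, most of it from Tubb3, Map2 and Uchl1, which are not restricted to neurons.

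Receptor genes made up a very small part of the libraries. All 91 genes together summed to 82.8 to 87.3 CPM per library with vehicle and 115.4 to 119.9 CPM with β-SITO, without overlap. Each of the 14 detected genes had a mean level below the median of the genes tested (21.4 CPM), from 0.437 CPM for Grik2 to 20.8 CPM for Gria3. Of the 4 AMPA receptor genes 3 were detected, of the 7 NMDA genes 2, of the 5 kainate genes 2, of the 19 GABA-A genes 2, of the 2 GABA-B genes 1, of the 16 nicotinic genes 2 and of the 14 serotonin genes 2. No detected gene came from the delta (2 genes), metabotropic glutamate (8), glycine (5), muscarinic (4) or dopamine (5) receptors.

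**Figure D1:**
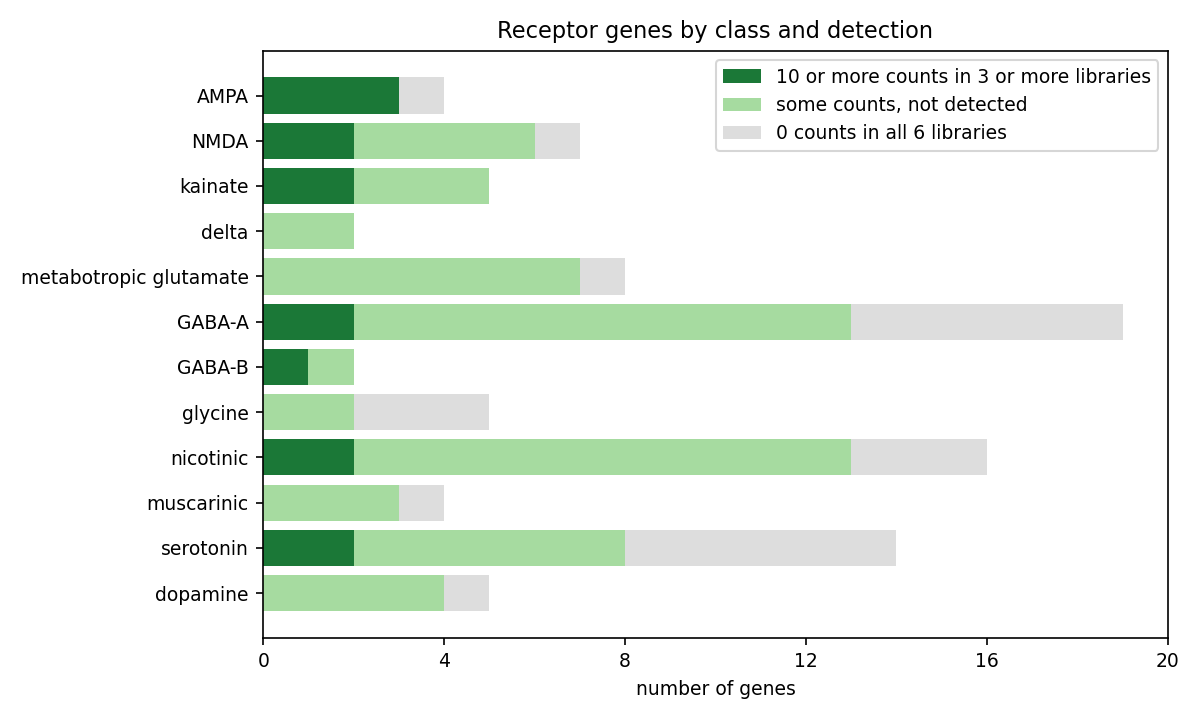
Number of receptor genes in each class (horizontal axis), split into those with 10 or more counts in 3 or more libraries (dark green), those with some counts that were not detected (light green) and those with 0 counts in all 6 libraries (grey). AMPA receptors had the largest detected share, 3 of 4 genes, and 5 classes had no detected gene.

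All 14 detected genes were tested. Differentially expressed genes (DEGs) were defined by an adjusted p under 0.05 in edgeR's quasi-likelihood test and a change of more than 2-fold. In the HO + β-SITO group 5 of the 14 were DEGs higher (Grin2a, Gria1, Gabra3, Grik2 and Grik5), where 12.8% of all tested genes were, and 2 were DEGs lower (Htr2a and Htr1b), where 10.1% of all tested genes were. Since 3 of the 5 higher genes were detected through the HO + β-SITO libraries alone, nothing is read from these shares. Without T4, whose cardiomyocyte markers stood apart from T5 and T6, Grik2 was no longer called and Htr2b was, so that 5 were higher and 2 lower, beside 13.2% and 10.4% of all genes tested without it. On the CPM scale the groups did not overlap for 10 of the 14 genes, where this was so for 70.5% of all tested genes. The remaining 7 genes, Gria3, Gria4, Gabbr1, Chrnb1, Chrnb2, Gabre and Grin2d, had log2 fold changes between -0.52 and 0.75.

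**Figure D2:**
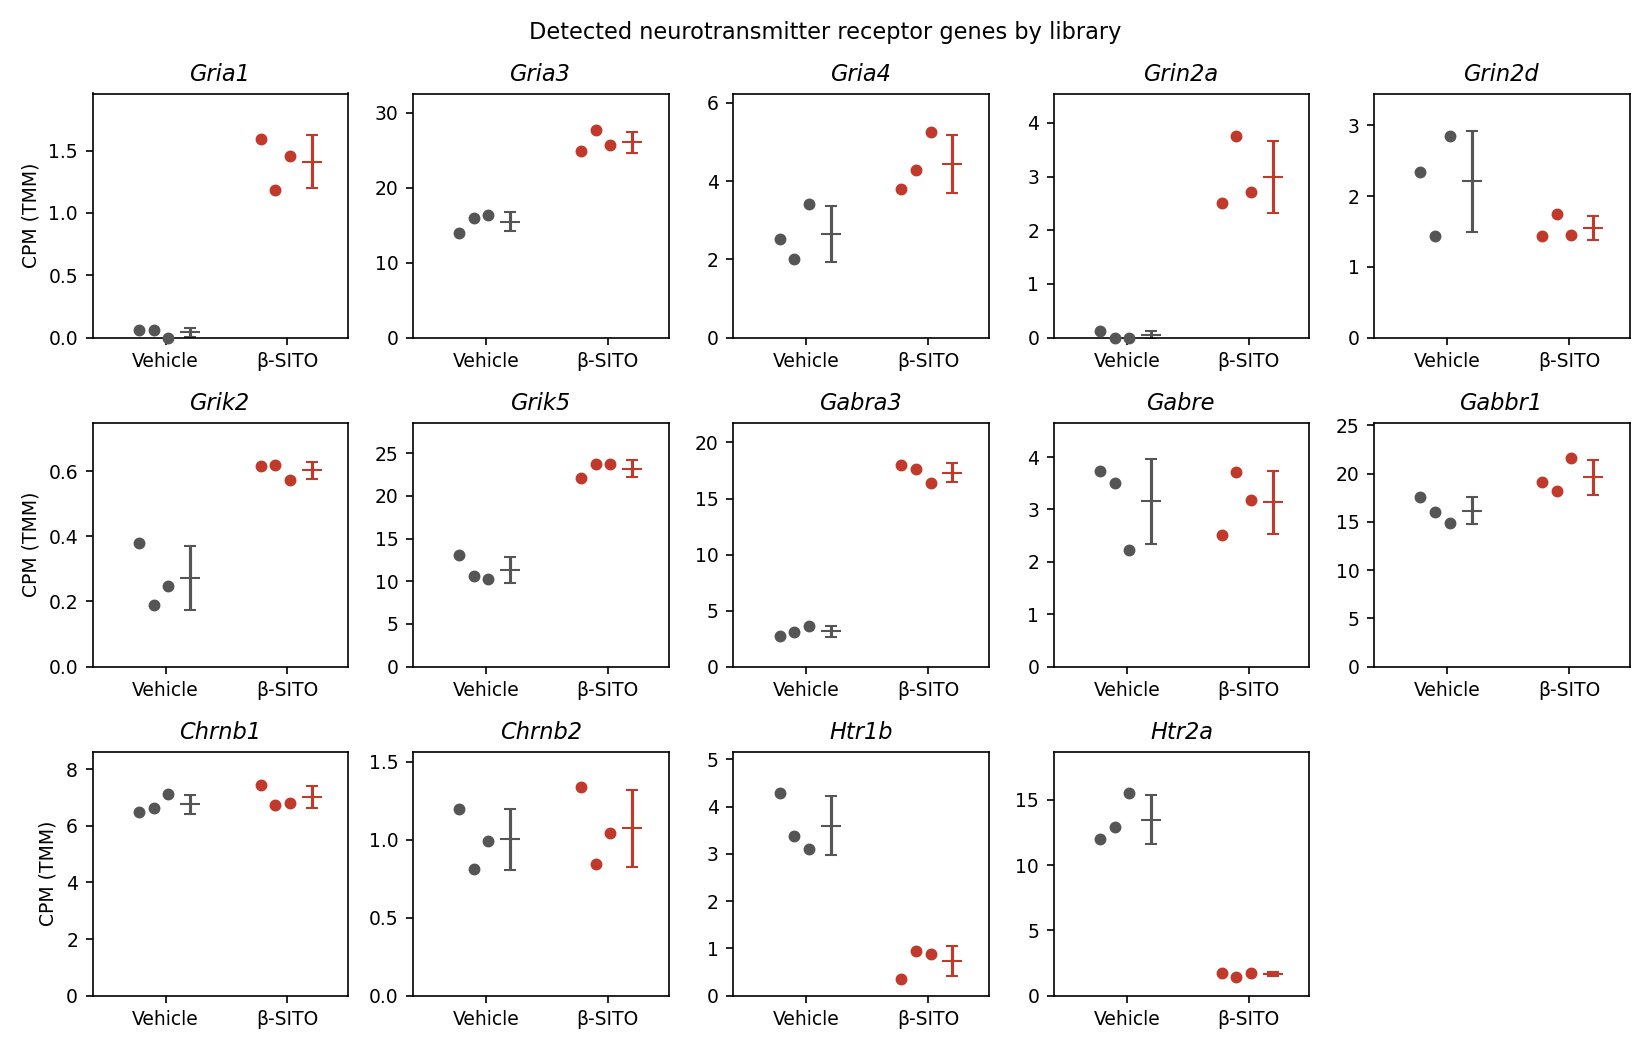
TMM-normalized CPM of the 14 detected receptor genes in each library (points, vehicle grey, β-SITO red), with the mean and SD of 3 libraries beside them. Each panel has its own vertical axis from 0. Gabra3, Grik5, Gria3, Gria4, Gria1, Grin2a, Grik2 and Gabbr1 were higher in every β-SITO library than in any vehicle library. This was so for 34.8% of all tested genes. Htr2a and Htr1b were lower in every β-SITO library than in any vehicle library, as were 35.8% of all tested genes.

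Among the AMPA receptor genes, which encode the channels of fast excitatory transmission, Gria3 was the most abundant. Gria3 (ENSMUSG00000001986, chromosome X from 40489731 to 40767478, GRCm39) had 222, 255 and 265 counts in the HO + Vehicle libraries and 485, 492 and 494 counts in the HO + β-SITO libraries. The groups did not overlap, which was so in the same direction for 34.8% of all tested genes. Its level was 15.5 ± 1.28 CPM against 26.1 ± 1.41 CPM (SD, n = 3). On the log2 scale the fold change was 0.75 ± 0.09 (SE, adjusted p = 1.96e-06), which is below 2-fold. Gria4 showed a change of similar size at a lower level, with 40, 32 and 55 counts against 74, 76 and 101 counts and a log2 fold change of 0.74 ± 0.21 (adjusted p = 0.00556). For both genes all HO + β-SITO libraries lay above all HO + Vehicle libraries. Both had an adjusted p under 0.05 without reaching 2-fold. Upward, 33.0% of all tested genes had an adjusted p under 0.05, whether or not they reached 2-fold.

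Gria1 (ENSMUSG00000020524, chromosome 11 from 56902213 to 57221070) was nearly absent from the HO + Vehicle group, with 1, 1 and 0 counts, and had 31, 21 and 28 counts in the HO + β-SITO group. Summed over the libraries, this was 2 counts against 80, a ratio of 33.9 per effective library size with a 95% exact counting interval from 9.10 to 285.1. The fitted log2 fold change was 4.86 ± 0.55 (adjusted p = 1.37e-06). Gria1 was detected through the HO + β-SITO libraries alone, so these values describe a gene that had to be high there. The counting interval leaves out the spread between libraries. Even so, Gria1 stayed far below Gria3. Per kilobase of exon its level was 0.233 CPM in the HO + β-SITO group, where that of Gria3 was 2.65 CPM. Gria2, which encodes the subunit that makes AMPA receptors poorly permeable to calcium, had 0 counts in all 6 libraries, which allows at most 3 counts per library.

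NMDA receptors need the subunit encoded by Grin1, together with GluN2 subunits that set their kinetics. Grin2a (ENSMUSG00000059003, chromosome 16 from 9385762 to 9813424) rose from 2, 0 and 0 counts to 49, 67 and 52 counts. The sums of 2 and 168 counts gave a ratio of 71.3 with a 95% exact counting interval from 19.4 to 593.5, and the fitted log2 fold change was 5.94 ± 0.54 (adjusted p = 1.15e-07). Like Gria1, Grin2a was detected through the HO + β-SITO libraries alone and had to be high there. Without V1, the only vehicle library with a count, the fitted value was 8.74, which then rests on a group at 0 and is no measure of size. Grin2d, the NMDA gene with the highest mean count, had 37, 23 and 46 counts against 28, 31 and 28 counts. Its groups overlapped, and the test was not passed (log2 fold change -0.52 ± 0.26, adjusted p = 0.0962). Without V2 it was -0.75 with an adjusted p of 0.0181, and without V3 it was -0.27 with an adjusted p of 0.443. Grin1 itself was not detected, with 6, 5 and 3 counts in the HO + Vehicle libraries and 0, 0 and 2 in the HO + β-SITO libraries. In GENCODE vM21 its exons share 1307 bases with Grin1os on the opposite strand. The strand setting of the counting is not given in the sources used here, so this value is uncertain. The level of Grin1 per kilobase of exon was 0.0302 CPM and 0.00358 CPM, while that of Grin2a was 0.00235 CPM and 0.167 CPM. Grin2b had 0 counts in all 6 libraries, and Grin2c, Grin3a and Grin3b had at most 11 counts in any library.

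Of the kainate receptor genes, Grik5 was the abundant member. It encodes a subunit that forms channels only together with the subunits of Grik1, Grik2 or Grik3. Grik5 (ENSMUSG00000003378, chromosome 7 from 24709274 to 24771771) had 207, 170 and 166 counts in the HO + Vehicle libraries and 430, 423 and 456 counts in the HO + β-SITO libraries. The groups lay far apart relative to their spread, at 11.3 ± 1.51 and 23.2 ± 0.958 CPM (SD, n = 3), but the log2 fold change of 1.03 ± 0.10 (adjusted p = 2.21e-07) sat just above the 2-fold cutoff. Without V2 it was 0.99 and without V3 it was also 0.99, so in both cases Grik5 was no longer a DEG. Grik2 passed detection by the narrowest margin and through the HO + β-SITO libraries alone. It had 6, 3 and 4 counts against 12, 11 and 11 counts. Its log2 fold change was 1.13 ± 0.43 (adjusted p = 0.0294), and the call was lost with DESeq2 (adjusted p = 0.135), with no filter on low counts, and without any of V2, V3, T4, T5 or T6 (adjusted p from 0.0515 to 0.104). Grik1 had 1 count in all, and Grik3 had at most 5 counts in a library.

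The GABA-A receptor is the main inhibitory chloride channel of the brain, built in most cases from α, β and γ subunits. Gabra3, which encodes the α3 subunit (ENSMUSG00000031343, chromosome X from 71476287 to 71700454), had 43, 49 and 59 counts in the HO + Vehicle libraries and 350, 313 and 314 counts in the HO + β-SITO libraries. Every HO + β-SITO library was far above the highest HO + Vehicle library. The level rose from 3.15 ± 0.475 to 17.3 ± 0.857 CPM (SD, n = 3), a 5.48-fold change (log2 fold change 2.45 ± 0.13, adjusted p = 1.19e-10). Gabre, the neighbouring gene that encodes the ε subunit, had 59, 56 and 36 counts against 49, 66 and 61 counts. Its groups overlapped, and its log2 fold change was -0.01 ± 0.22 (adjusted p = 0.964), with a sign that turned under other normalizations. Gabrq, the third gene of this X-linked cluster between 71299605 and 71886208, had at most 4 counts in a library.

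Neither Gabrb1 nor Gabrb2, which encode β subunits, was detected. Gabrb1 had 1, 0 and 2 counts against 14, 9 and 12, and Gabrb2 had 0 in each HO + Vehicle library against 0, 3 and 2. Per kilobase of exon, Gabra3 had 4.41 CPM in the HO + β-SITO group, where Gabrb1 had 0.0446 and Gabrb2 0.0143 CPM. Gabrb1 (from 71815456) and Gabra4 (to 71815651) overlap at their starts on chromosome 5, on opposite strands, so reads there cannot be assigned with certainty. Both were nearly at 0 in the HO + Vehicle group, and Gabra4 had 0, 0 and 1 counts against 8, 4 and 6. Gabra2 and Gabrg1, the other genes of that cluster, had 0 counts in all 6 libraries.

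**Figure D3:**
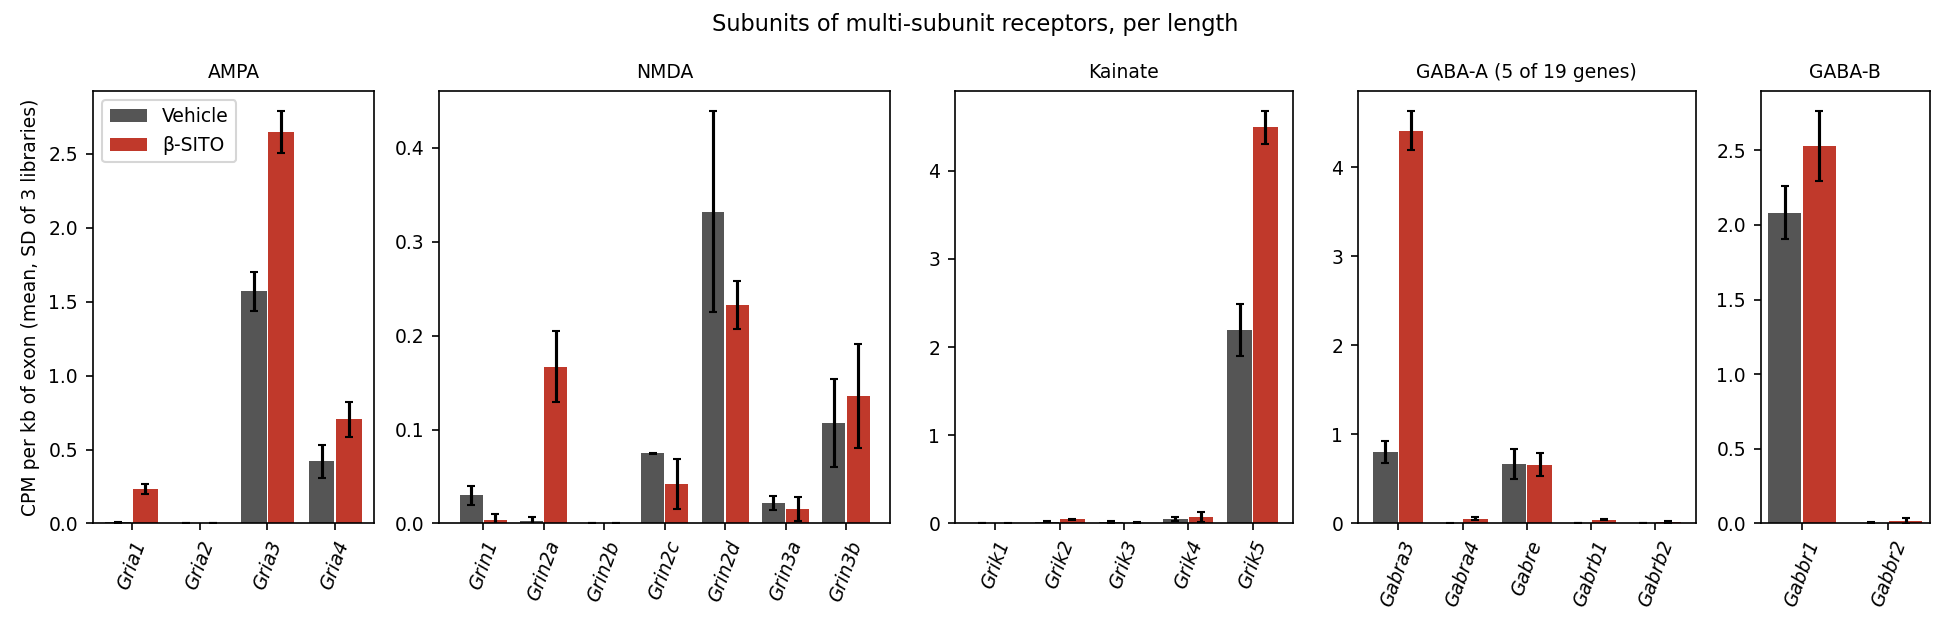
Level of subunit genes as CPM per kilobase of exon (mean of 3 libraries, bars from 0, error bars SD; vehicle grey, β-SITO red). Each panel is a receptor class with its own axis, and the GABA-A panel shows 5 of the 19 genes. Gabra3, Grik5 and Gabbr1 were the highest genes of their panels. Gabre was at 0.666 with vehicle and 0.662 with β-SITO, and the remaining genes of these panels were near 0. Gria2 and Grin2b were at 0.

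GABA-B receptors couple to G proteins as pairs of the proteins of Gabbr1 and Gabbr2. Gabbr1 (ENSMUSG00000024462, chromosome 17 from 37356858 to 37385959) had 279, 255 and 240 counts against 372, 323 and 416 counts. Its level of 16.2 ± 1.38 CPM against 19.6 ± 1.81 CPM (SD, n = 3) corresponds to a log2 fold change of 0.28 ± 0.10 (adjusted p = 0.0177), well under 2-fold, although the groups did not overlap. The adjusted p was 0.0598 without V3 and 0.0947 without T6. Gabbr2 was not detected, with 0, 1 and 1 counts against 5, 0 and 2.

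Neither of the 2 detected nicotinic acetylcholine receptor genes passed the test. Chrnb1, which encodes the β subunit of the muscle-type receptor (ENSMUSG00000041189, chromosome 11 from 69674862 to 69686769), had 103, 106 and 115 counts against 145, 120 and 131 counts. On the CPM scale the groups overlapped, at 6.76 ± 0.326 and 7.01 ± 0.388 CPM (SD, n = 3), and the log2 fold change was 0.05 ± 0.12 (adjusted p = 0.727). Chrna1, which encodes the muscle-type α subunit, had at most 8 counts, Chrnd had 0 in all 6 libraries, and Chrne and Chrng had 1 count each in all. Chrnb2, a neuronal subunit, had 19, 13 and 16 counts against 26, 15 and 20 counts (log2 fold change 0.11 ± 0.30, adjusted p = 0.772). In GENCODE vM21 its exons share 1365 bases with Adar on the opposite strand. Adar had 3502 to 3889 counts per vehicle library and 694 to 797 per β-SITO library, and the strand setting of the counting is not given in the sources used here, so the value of Chrnb2 is uncertain.

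The 2 detected serotonin receptor genes were both DEGs lower. Htr2a, which encodes a receptor that raises intracellular calcium through Gq proteins (ENSMUSG00000034997, chromosome 14 from 74878280 to 74946934), had 190, 206 and 251 counts in the HO + Vehicle libraries and 34, 26 and 34 counts in the HO + β-SITO libraries. The level fell from 13.5 ± 1.85 to 1.66 ± 0.172 CPM (SD, n = 3), an 8.08-fold decrease (log2 fold change -3.01 ± 0.16, adjusted p = 1.69e-10). Htr1b, which encodes a receptor that lowers cyclic AMP through Gi proteins (ENSMUSG00000049511, chromosome 9 from 81510344 to 81515881), had 68, 54 and 50 counts against 7, 17 and 17. All HO + β-SITO libraries were below all HO + Vehicle libraries for both genes, as they were for 35.8% of all tested genes. For Htr1b the change was 4.90-fold (log2 fold change -2.29 ± 0.29, adjusted p = 4.81e-06). Both stayed DEGs under each setting in which their fold change was recomputed. In GENCODE vM21 the exons of Htr1b share 852 bases with D430036J16Rik on the opposite strand, which had 0 to 5 counts per library.

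Htr2b, a further Gq-coupled serotonin receptor with a known part in the development of the heart, missed detection with 4, 0 and 5 counts against 9, 12 and 13. The direction was opposite to that of Htr2a, with a ratio of summed counts of 3.21 (95% exact counting interval 1.51 to 7.60). Its exons share 252 bases with Psmd1 on the opposite strand in GENCODE vM21, so this value is uncertain as well. Of the 14 serotonin receptor genes, 6 had 0 counts in all 6 libraries. Slc6a4, the transporter that clears serotonin from outside the cell, is not a receptor and comes from the list of other signalling genes below. It had 133, 129 and 136 counts against 1, 1 and 4, a log2 fold change of -6.20 ± 0.30 (adjusted p = 4.52e-11). Without T6, which held 4 of the 6 β-SITO counts, it was -7.08.

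**Figure D4:**
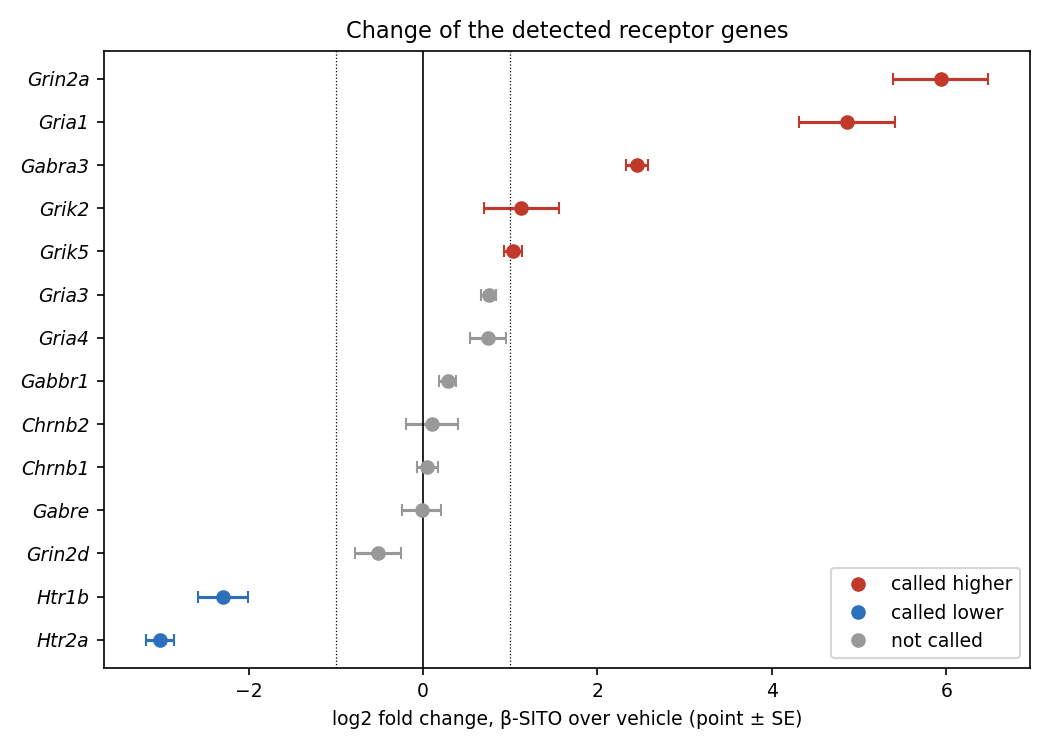
Log2 fold change of the 14 detected receptor genes, β-SITO over vehicle (points, bars SE; dotted lines mark 2-fold). Red genes were DEGs higher, blue genes DEGs lower and grey genes were not DEGs. Htr2a and Htr1b lie left of the lower line, and Grik2 and Grik5 lie near the upper line.

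Of the 7 DEGs, 5 have an entry in the RefSeq promoter table (GRCm38.p6). Gria1 and Grin2a have no entry. The 250 bases before the annotated start are shown for the 3 with the largest changes among those 5, so that the sequence context of Gabra3, which rose, can be set beside that of the genes that fell. They lie at chrX:72656920-72657169 (minus strand), chr14:74640624-74640873 (plus strand) and chr9:81633833-81634082 (minus strand). Capitals mark matches to TATAAA or GGGCGG on either strand.
Gabra3: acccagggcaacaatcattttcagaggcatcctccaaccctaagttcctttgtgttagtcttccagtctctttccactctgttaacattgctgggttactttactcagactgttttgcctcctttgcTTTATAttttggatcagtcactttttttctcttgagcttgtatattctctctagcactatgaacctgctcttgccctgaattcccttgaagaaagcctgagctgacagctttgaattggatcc
Htr2a: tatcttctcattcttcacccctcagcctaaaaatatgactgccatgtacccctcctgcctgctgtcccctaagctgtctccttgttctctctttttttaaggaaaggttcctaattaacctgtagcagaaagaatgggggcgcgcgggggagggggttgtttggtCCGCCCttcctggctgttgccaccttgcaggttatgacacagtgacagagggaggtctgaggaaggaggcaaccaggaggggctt
Htr1b: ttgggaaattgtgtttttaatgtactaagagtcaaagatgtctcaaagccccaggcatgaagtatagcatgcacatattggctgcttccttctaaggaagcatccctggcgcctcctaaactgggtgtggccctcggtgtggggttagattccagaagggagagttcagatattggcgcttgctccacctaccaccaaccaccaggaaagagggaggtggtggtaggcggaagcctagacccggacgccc
The Gabra3 window held 1 match to TATAAA, 0 to GGGCGG and 0 CG dinucleotides, at a GC content of 42.4%. The second annotated start of Gabra3 lies further downstream, and its window overlaps this sequence. The Htr2a window held 1 match to GGGCGG and 4 CG dinucleotides (GC content 52.8%), and the Htr1b window held neither motif and 6 CG dinucleotides (52.4%). Over all 32851 windows of this length in the table, 12.4% held TATAAA and 32.7% held GGGCGG, with a median GC content of 52.4%. These matches describe letters and not binding sites.

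The 77 genes that were not detected were very low. In 23 of them all 6 libraries had 0 counts, 25 had a total of 1 to 5 counts over the 6 libraries, 16 had 6 to 20 and 13 had more than 20. Their median total was 3 counts and the highest was 43 counts, reached by Chrm3 and Htr2b, against 47 counts for Grik2, the lowest detected gene. Together they came to 5.31 to 6.57 CPM with vehicle and 6.66 to 7.91 CPM with β-SITO. Metabotropic glutamate receptors had at most 5 counts in any library, and delta receptors at most 3. A fit with no filter on low counts covered 54 of the 77 genes and called 4 higher (Chrm3, Gabrb1, Gabra4 and Htr2b) and 6 lower (among them Drd1, Chrna2 and Grin1), where 8.68% and 7.16% of all genes in that fit were called.

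The low genes called in that fit moved both ways and rest on few counts. The intervals given for them cover counting error only and leave out the spread between libraries. Chrm3, the Gq-coupled muscarinic receptor of smooth muscle and glands, had 3, 0 and 0 counts against 15, 18 and 7, a ratio of summed counts of 11.3 (95% exact counting interval 3.60 to 57.2). For Gabrb1 the ratio was 9.90 (3.12 to 50.3). In the opposite direction, the dopamine receptor gene Drd1 had 4, 9 and 10 counts against 1, 0 and 2, a ratio of 0.111 (0.0213 to 0.366), and Chrna2 had 6, 10 and 7 against 2, 2 and 1, a ratio of 0.184 (0.0548 to 0.496). Chrna7, the α7 nicotinic receptor gene of neurons and macrophages, had 2, 4 and 4 counts against 14, 9 and 7 and was not called.

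**Figure D5:**
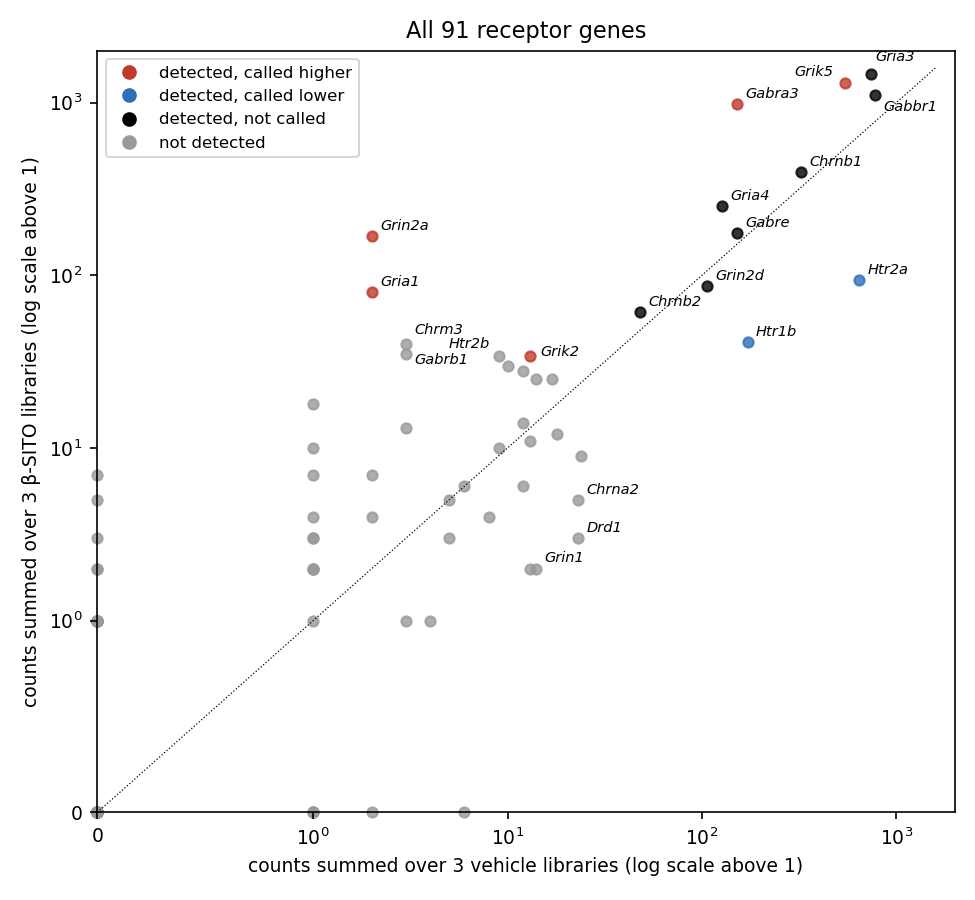
Counts of all 91 receptor genes summed over the 3 vehicle libraries (horizontal) and the 3 β-SITO libraries (vertical), both linear from 0 to 1 and logarithmic above. Red and blue points are DEGs, black points were detected and not DEGs, grey points were not detected, and the dotted line marks equal sums. Grin2a and Gria1 lie at 2 vehicle counts, and Htr2a and Htr1b lie well below the line.

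Receptor genes often stand in clusters. Of the 91 genes, 30 lay within 1 Mb of another in 11 groups, and only 3 of these 30 were detected. In the cluster on chromosome 5 (Gabrg1, Gabra2, Gabra4 and Gabrb1) the summed counts were 4 in the HO + Vehicle group and 53 in the HO + β-SITO group. The X-linked cluster of Gabre, Gabra3 and Gabrq had 308 and 1159 counts, most of the difference from Gabra3.

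Other genes of transmitter signalling were taken from a list of 106 genes (accessory proteins and scaffolds of receptors, and enzymes and transporters of the transmitters), and 63 of them had enough counts for the test. With β-SITO, 11 were DEGs higher and 10 DEGs lower, where 12.8% and 10.1% of all tested genes were, with a median log2 fold change of 0.28 against -0.01 over all tested genes. Scaffold and accessory proteins of glutamate receptors had 5 of 21 tested genes higher and 1 lower, to be read against the same 12.8% and 10.1%. Dlg2, which encodes a scaffold that binds NMDA receptors, had 26, 31 and 34 counts against 406, 428 and 449 counts (log2 fold change 3.58 ± 0.13, adjusted p = 1.76e-12). Shank3, a scaffold of the postsynaptic density, also rose, from 5.64 ± 0.978 to 22.1 ± 0.641 CPM (SD, n = 3). Grip1, a further scaffold of this list, had 0, 1 and 1 counts against 16, 13 and 22 (log2 fold change 4.22 ± 0.63, adjusted p = 2.48e-05). It reached 10 counts only in the HO + β-SITO group. Dlg1, Dlg3, Dlg4, Homer1 and Homer2 moved both ways by less than 2-fold. Dlg4 fell from 73.9 ± 5.10 to 51.7 ± 2.15 CPM (adjusted p = 6.92e-06). Homer1 fell from 18.4 ± 1.30 to 13.1 ± 2.16 CPM (adjusted p = 0.00149), while Dlg1, Dlg3 and Homer2 rose.

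The list of GABA and glycine receptor accessory proteins, which also held the neuroligins and neurexins, had 1 of 9 tested genes higher and 2 lower. Both lower genes were neuroligins (Nlgn1 and Nlgn2). The numbers for this list and the lists that follow are to be read against 12.8% higher and 10.1% lower over all tested genes. Kctd12b, of the family of GABA-B auxiliary subunits, rose by 1.55 on the log2 scale, and Nlgn2, an adhesion protein of inhibitory synapses, fell from 132.2 ± 5.72 to 53.7 ± 2.75 CPM (SD, n = 3). Among accessory proteins of acetylcholine receptors 2 of 6 were higher and 1 was lower. Agrn, which encodes the agrin that clusters receptors at the neuromuscular junction, fell from 391.3 ± 36.0 to 111.2 ± 7.69 CPM (SD, n = 3), while its receptor gene Lrp4 rose from 8.68 ± 1.23 to 24.8 ± 1.84 CPM. Enzymes of synthesis and breakdown had 1 of 16 higher and 2 lower, among them Shmt2, a mitochondrial enzyme that interconverts serine and glycine (log2 fold change -1.07). Of the transporters 2 of 11 were higher and 4 lower. The glutamate transporter gene Slc1a6 had a log2 fold change of 1.85, while Slc1a2, another glutamate transporter gene, had 54, 54 and 75 counts against 3, 2 and 4 (log2 fold change -4.52, adjusted p = 9.72e-09). In the same class, the glycine transporter gene Slc6a9 had -1.09, and Slc6a4 fell the most. Chat, the gene of the enzyme that makes acetylcholine, had 0 counts in all 6 libraries.

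Markers of several cell types that such a culture can hold also moved between the groups. The numbers of DEGs among them are to be read against 12.8% higher and 10.1% lower over all tested genes. All 7 endothelial markers were DEGs higher, and their summed level was 177.0 to 205.4 CPM with vehicle and 724.1 to 765.9 CPM with β-SITO. Of 9 smooth muscle and pericyte markers 6 were higher and none lower (1189 to 1296 CPM against 2132 to 2423 CPM), and of 7 macrophage markers 5 were higher and 1 was lower (1083 to 1202 CPM against 2383 to 2921 CPM). Of 9 Schwann cell and glia markers 5 were tested and 2 were higher (12.7 to 14.0 CPM against 28.6 to 30.9 CPM), with Sox10 at 5 to 14 counts per library. The fibroblast list had 0 of 7 genes called in either direction, the epicardial and mesothelial list had 1 of 4 higher, and the cardiomyocyte list had 3 of 11 higher. The skeletal muscle list had 2 of 3 tested genes higher at 1.36 to 2.57 CPM against 5.73 to 6.48 CPM, with Myod1 and Myh3 at 0. Of 4 tested neuron markers 1 was higher and 1 lower. The part of these cell types in the changes of the receptor genes was not tested, and in bulk RNA fewer cells of a type and less RNA per cell cannot be told apart.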

How the data were processed

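Total RNA was extracted from NMCMs, and the 6 libraries made from it were sequenced as 150 bp paired-end reads. Per the labels, FastQC, HISAT2 and featureCounts with GRCm39 were named in the submitters' processing notes (versions and options are not given in the sources used here), and the authors deposited raw gene counts for all 6 libraries. The methods name an ABclonal mRNA-seq kit and the labels an Illumina kit.

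Genes were kept by filterByExpr (14799), scaled by TMM and compared with the quasi-likelihood test of edgeR 4.0.16 (R 4.3.3), with the group as the only term and Benjamini-Hochberg adjustment over all of them. The authors had used DESeq2, and their cutoffs for DEGs were kept. The SE was taken as the log2 fold change over the root of the F statistic. Exact intervals were conditional binomial intervals on summed counts, which cover counting error only and leave out the spread between libraries. Exon lengths and exon overlaps came from GENCODE vM21 (GRCm38), matched by gene identifier. The code was tested on simulated data. DESeq2 1.42.0 and limma 3.58.1 served as alternatives.

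The receptor genes and the lists of other genes and markers were chosen with earlier results of these data known. Counts per library are given for DEGs averaging 50 counts or more, for the most abundant detected gene of each class and for genes detected in 1 group only. Other genes given by library (among them Gria4, Htr1b, Gabre, Chrnb2, Slc1a2 and the low genes) were picked after their values were seen. From the signalling list the 5 largest increases and 5 largest decreases among DEGs of that abundance are named. Other genes of that list, among them Nlgn1, Grip1, Dlg4 and Homer1, were named after their values were seen. Values of some single genes are not reported here.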

Additional observations from a re-analysis of the deposited data

How the results depend on the processing

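The 5 receptor genes called higher became 3 with glmTreat at 2-fold, where 8.55% of all tested genes were called higher. They became 8 with no fold-change cutoff, where 33.0% were. With no filter on low counts they became 8 of 68 tested receptor genes, where 8.68% of all genes were. With each library left out they were 5 to 8, where 12.9% to 13.9% were. The highest number came without V1, which added Chrm3, Gabrb1 and Htr2b. The 2 called lower became 8 of the same 68 with no filter, where 7.16% of all genes were called lower. They stayed 2 with each library left out, where 9.77% to 10.4% were. Of the 91 genes, 25 were detected at 5 or more counts in 3 or more libraries, and 11 to 14 with each library left out. The signalling list had 27 higher and 19 lower with no fold-change cutoff (11 and 10 in the report), where 33.0% and 33.8% of all tested genes were. It had 6 lower with glmTreat, where 7.95% were, and 10 to 13 higher and 8 to 11 lower with each library left out. Library size only and upper quartile normalization moved the median of all genes by 0.15 and 0.14 on the log2 scale, and gave this list 14 higher and 8 lower, with the receptor genes still at 5 and 2. Under both, 15.3% of all tested genes were higher, and 8.68% and 8.7% were lower. Gabre changed sign with limma-voom (0.000233), upper quartile normalization (0.13), library size only (0.13), and without V1 (0.14), V2 (0.073) or T4 (0.12), over a range of -0.19 to 0.14 with each library left out. Chrnb2 changed sign without V2 (-0.019) or T4 (-0.083), over a range of -0.083 to 0.28. Grik2 and Grik5 lost their calls as given in the report, and also with glmTreat. The cause was not tested. Slc6a9 and Shmt2 were under 2-fold with those normalizations (not with DESeq2 size factors) and lost the call with glmTreat, and Slc6a9 was also under it without V3 (-0.997). No paired analysis was possible because the labels number the groups 1 to 3 and 4 to 6. At this depth a gene with fewer than 10 counts per library carries a counting error too large for moderate changes to be seen.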
